A study of Mus musculus with 4 samples.

Results

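The 37 genes described here encode the enzymes, transporters and regulators with which the liver takes up, burns, stores and makes glucose, together with the insulin receptor and the proteins it acts through. They were chosen by name and placed in 6 branches: 13 genes of glycolysis and pyruvate use, 8 of gluconeogenesis and glucose export, 6 of glycogen metabolism, 4 of the pentose phosphate pathway, 1 of fructose use and 5 of insulin signalling. Probes were assigned to them through the transcript accession that the scanner files list for each probe. All 37 were found, with 51 probes, among 20886 genes that could be named on the array.

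RNA came from whole liver of male mice. The 4 groups were catalase knockout mice on a high-fat diet, catalase knockout mice on a normal diet, wild-type mice on a high-fat diet and wild-type mice on a normal diet. The high-fat diet drew 60.3% of its calories from fat and the normal diet 18%, and each was eaten for 11 weeks, between 29 and 40 weeks of age. Each group is represented by 1 array, and whether that array holds 1 animal or a pool is not given in the sources used here, nor are the strain, the feeding state or the hour at which livers were taken. Catalase breaks down hydrogen peroxide, mainly in peroxisomes. Its gene Cat had a scaled log2 signal of 0.95 in the knockout on high-fat diet and 1.13 in the knockout on normal diet, against 4.75 in wild type on high-fat diet and 4.89 in wild type on normal diet. It was thus 14.0-fold lower in the knockout on high-fat diet and 13.5-fold lower on normal diet, and whether the deletion removes the probed sequence is not given in the sources used here.

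Glycolysis breaks glucose down to pyruvate, which either becomes lactate or enters mitochondria through pyruvate dehydrogenase. Gluconeogenesis runs largely the opposite way and lets the liver release glucose to the blood between meals, while glycogen holds glucose in reserve and the pentose phosphate pathway draws it off to make NADPH, the reducing power used for lipid synthesis and for the glutathione and thioredoxin systems. Insulin, acting through its receptor and the Irs adaptor proteins, favours storage and restrains glucose output, in part by keeping the transcription factor Foxo1 out of the nucleus.

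Signals are given as the log2 of the scanner's background-subtracted signal minus the 75th percentile of the same array, so that 0 marks the 75th percentile. Each value after ± is built from the scanner's own spot errors, for a difference between arrays, with the spots of a probe taken as independent. It was 0.20 for a typical probe, it covers spot measurement alone and it leaves out the spread between animals. A gene is said to have risen or fallen only where the difference reached 2-fold, which is 1 on the log2 scale. With 1 array a group, a difference between 2 arrays has no test and no p-value, and the p-values given further on come from a fit over all 4 arrays. All 37 genes were well above background on all 4 arrays, and 32 of them lay above the 75th percentile on every array, against 30.2% of all named genes. The 10 hepatocyte marker genes looked at were also well above background on each array.

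Most of these genes differed little between the livers. The range over the 4 groups was under 0.5 on the log2 scale for 20 of the 37 genes, and it exceeded 1 for 5 of them, namely Slc2a4, Pfkfb3, Ppp1r3c, Irs2 and Pdk4. The knockout on high-fat diet had the lowest value of 17 genes and the highest of 7. The knockout on normal diet stood the other way, with the lowest value of 2 genes and the highest of 15. Wild type on high-fat diet was lowest for 8 and highest for 9, and wild type on normal diet was lowest for 10 and highest for 6. Shares of all genes are not given here for these ranges and ranks. Genes in general also leaned low on the knockout high-fat array. Of those measured on both arrays, 39.9% were above 0 for diet in the knockout and 43.1% for genotype on high-fat diet.

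**Figure D1:**
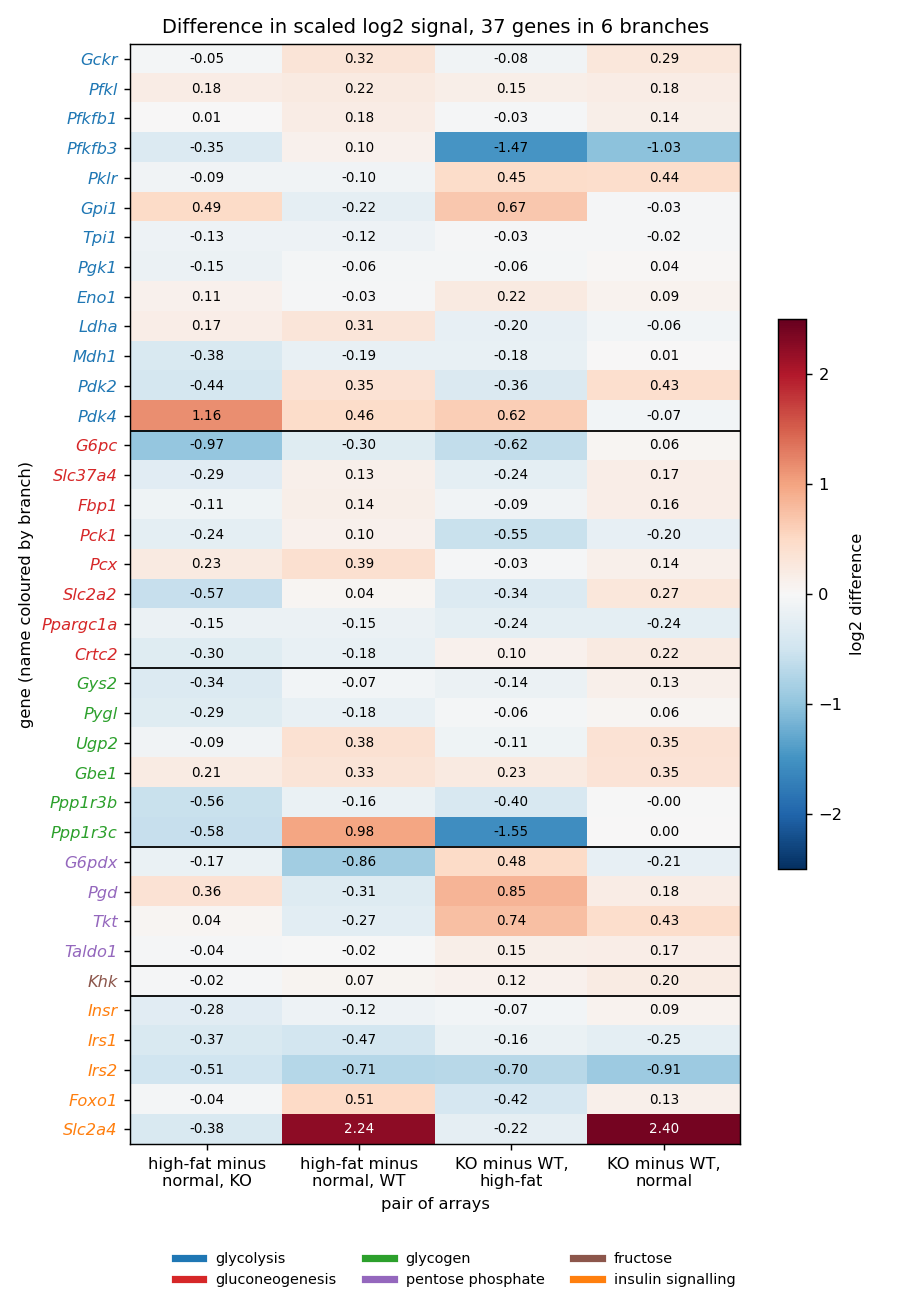
Log2 differences in scaled signal for the 37 genes (rows, names coloured by branch) in 4 pairs of arrays (columns); red is higher and blue lower in the first-named group of each pair, and each cell prints its value. The deepest cells are those of Slc2a4 in the 2 pairs that contain the wild-type normal-diet array (2.24 and 2.40) and of Pfkfb3 and Ppp1r3c in the knockout against wild type on high-fat diet (-1.47 and -1.55).

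Between the diets in the knockout, 1 of the 37 genes differed by 2-fold or more. That gene, Pdk4, rose. Of the 14905 genes tested 5.86% changed, 4.22% rising and 1.64% falling, and no member fell, although G6pc came close to the mark. The median difference over the 37 genes was -0.15, with 27 below 0, against a median of -0.07 over all genes measured on both arrays. The median of the 37 genes was above 0 (0.02) under another of the settings tried, so its sign depended on the processing.

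Between the diets in wild type another gene differed by 2-fold or more. Slc2a4 rose and no member fell, where 4.09% of the 14636 genes tested changed, 1.78% rising and 2.3% falling. The Slc2a4 difference rests on a low reading of the wild-type normal-diet array alone. At a 1.5-fold threshold 4 members passed in wild type, against 10.9% of genes. Ppp1r3c joined Slc2a4 on the higher side, which held 4.45% of genes, and G6pdx and Irs2 were on the lower side, which held 6.48%. In the knockout 15.2% of genes passed 1.5-fold, 9.52% higher and 5.68% lower, and the members that did were Pdk4 on the higher and G6pc on the lower side. The median difference over the 37 genes in wild type was -0.02, and that over all genes was -0.02 as well.

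Catalase loss on high-fat diet was accompanied by a fall of 2 members, Ppp1r3c and Pfkfb3, where 1.59% of the 14844 genes tested fell. No member rose, where 2.5% of the genes tested did, and 4.09% changed either way. At 1.5-fold 8 members passed, against 11.7% of genes. Gpi1, Pdk4, Pgd and Tkt were higher in the knockout, against 7.34% of genes, and Pfkfb3, G6pc, Ppp1r3c and Irs2 were lower, against 4.35%. The median over the 37 genes was -0.08, against -0.04 over all genes, and its sign changed with the processing.

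Catalase loss on normal diet was accompanied by a rise of Slc2a4, where 1.4% of the 14702 genes tested rose, and by a fall of Pfkfb3, where 2.5% fell and 3.9% changed either way. At 1.5-fold 10.5% of genes passed, 3.89% higher and 6.65% lower, and Irs2 was the one further member, on the lower side. The median over the 37 genes was 0.13, with 26 above 0, against -0.01 over all genes. Both genotype comparisons use the same arrays as the 2 diet comparisons, so the 4 sets of differences are not independent of each other. The diet effects in the 2 genotypes share no array.

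Among the regulators of glycolysis, Pfkfb3 had the largest difference. It encodes an enzyme that makes the allosteric activator of phosphofructokinase, and it is one of several isoforms, of which Pfkfb1 is the main one of liver. Pfkfb3 had a scaled log2 signal of 1.17 in the knockout on high-fat diet and 1.52 in the knockout on normal diet, against 2.64 in wild type on high-fat diet and 2.54 in wild type on normal diet. Both knockout arrays lay below both wild-type arrays on this probe. Such an order, here and for later genes, only describes the values, since the 2 arrays of a genotype differ in diet and are not replicates. The share of all genes with such an order is not given here. Pfkfb3 fell 2.78-fold in the knockout on high-fat diet (-1.47 ± 0.20) and 2.04-fold on normal diet (-1.03 ± 0.20). The diet differences were -0.35 ± 0.20 in the knockout and 0.10 ± 0.20 in wild type. A dimmer Pfkfb3 probe read -4.59, -4.25, -3.61 and -3.85 on the arrays in the same order, again with both knockout arrays below both wild-type arrays. On that probe the knockout was lower by 0.99 on high-fat diet and by 0.40 on normal diet, neither of which reaches 2-fold. The normal-diet difference of Pfkfb3 was also short of 2-fold with median scaling (-0.88), with normexp background correction (-0.98) and with its probes averaged (-0.71).

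RefSeq (build GRCm38.p6) lists 2 start sites for Pfkfb3. The 250 bases before each are shown because the gene was the only member that fell 2-fold in the knockout on both diets in the main setting. In these and the later promoters, capitals mark any match to 4 motifs, each searched on both strands. The E-box motif was searched as CACGTG, which reads alike on both strands. The forkhead motif was searched as GTAAACA and the cAMP response motif as ACGTCA. The remaining motif, known as the CCAAT box, appears as ATTGG when it lies on the opposite strand. No match overlaps another in these windows.
Pfkfb3 start site 1, chr2:11553930-11554179, minus strand: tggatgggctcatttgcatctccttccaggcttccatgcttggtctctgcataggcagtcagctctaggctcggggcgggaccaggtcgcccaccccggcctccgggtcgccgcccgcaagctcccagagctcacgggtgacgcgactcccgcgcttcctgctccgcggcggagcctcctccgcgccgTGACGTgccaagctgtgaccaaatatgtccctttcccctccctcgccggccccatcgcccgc
Pfkfb3 start site 2, chr2:11502091-11502340, minus strand: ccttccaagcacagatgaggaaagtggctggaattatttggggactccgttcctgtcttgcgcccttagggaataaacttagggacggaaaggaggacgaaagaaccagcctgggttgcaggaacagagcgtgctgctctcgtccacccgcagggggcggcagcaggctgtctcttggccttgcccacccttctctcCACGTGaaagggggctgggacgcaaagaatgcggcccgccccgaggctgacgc
The first window holds the cAMP response motif, found in 6.47% of the 32851 RefSeq windows of this length, and the second the E-box, found in 6.02%. A match describes these letters and shows no binding, and the arrays do not tell the start sites apart.

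The liver isoform Pfkfb1 lay between 3.84 and 4.02 on the 4 arrays, so its whole range was smaller than the scanner error of a difference. Pfkl, the liver phosphofructokinase, lay between -0.20 and 0.16. Gckr, the regulatory protein that holds glucokinase in the nucleus, was 5.73 in the knockout on high-fat diet and 5.78 in the knockout on normal diet, against 5.82 in wild type on high-fat diet and 5.49 in wild type on normal diet. The wild-type normal-diet array was the low one for Gckr, with differences of 0.29 ± 0.20 against the knockout on the same diet and 0.32 ± 0.20 against wild type on high-fat diet, and neither reached 2-fold.

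Of the glycolytic enzymes, Gpi1 differed most. It encodes glucose phosphate isomerase, the step shared by glycolysis and the return arm of the pentose phosphate pathway. Gpi1 had a scaled log2 signal of 5.93 in the knockout on high-fat diet and 5.44 in the knockout on normal diet, against 5.26 in wild type on high-fat diet and 5.48 in wild type on normal diet. One array, the knockout on high-fat diet, stood above the other three. It was 1.59-fold higher than wild type on the same diet (0.67 ± 0.20), short of 2-fold. Pklr, the liver pyruvate kinase, was higher in the knockout by 0.45 ± 0.20 on high-fat diet and by 0.44 ± 0.20 on normal diet. Its 4 values of 0.94, 1.03, 0.49 and 0.59 placed both knockout arrays above both wild-type arrays. Ldha, which makes lactate, was higher on the high-fat diet by 0.17 ± 0.20 in the knockout and by 0.31 ± 0.20 in wild type. Tpi1, Pgk1 and Eno1, further enzymes of the trunk pathway, and Mdh1, the cytosolic malate dehydrogenase, differed by at most 0.38 in any of the 4 pairs.

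Pyruvate dehydrogenase kinases switch off the entry of pyruvate into mitochondrial oxidation, and Pdk4 is the isoform known to be induced by fasting and fat. Pdk4 had a scaled log2 signal of -0.53 in the knockout on high-fat diet and -1.69 in the knockout on normal diet, against -1.15 in wild type on high-fat diet and -1.62 in wild type on normal diet. Both high-fat arrays lay above both normal-diet arrays, and the knockout one was the highest. Pdk4 rose 2.24-fold with the high-fat diet in the knockout (1.16 ± 0.21). With normexp background correction it was just short of 2-fold, at 0.99. In wild type the diet difference was 0.46 ± 0.21, or 1.38-fold, and the 2 diet effects differed by 0.70 ± 0.29. Pdk2, the more constant liver isoform, was 2.60 in the knockout on high-fat diet and 3.04 in the knockout on normal diet, against 2.96 in wild type on high-fat diet and 2.61 in wild type on normal diet. Its diet differences had opposite signs, -0.44 ± 0.20 in the knockout and 0.35 ± 0.20 in wild type. The Pdk4 promoter window, shown because Pdk4 was the member that rose with diet in the knockout, holds the CCAAT motif, which 33.8% of all windows hold.
Pdk4, chr6:5496279-5496528, minus strand: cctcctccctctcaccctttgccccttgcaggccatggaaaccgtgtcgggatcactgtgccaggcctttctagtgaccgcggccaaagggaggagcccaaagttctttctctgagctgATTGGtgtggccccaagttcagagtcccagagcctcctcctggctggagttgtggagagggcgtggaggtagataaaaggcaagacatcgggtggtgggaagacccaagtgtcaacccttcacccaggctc

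**Figure D2:**
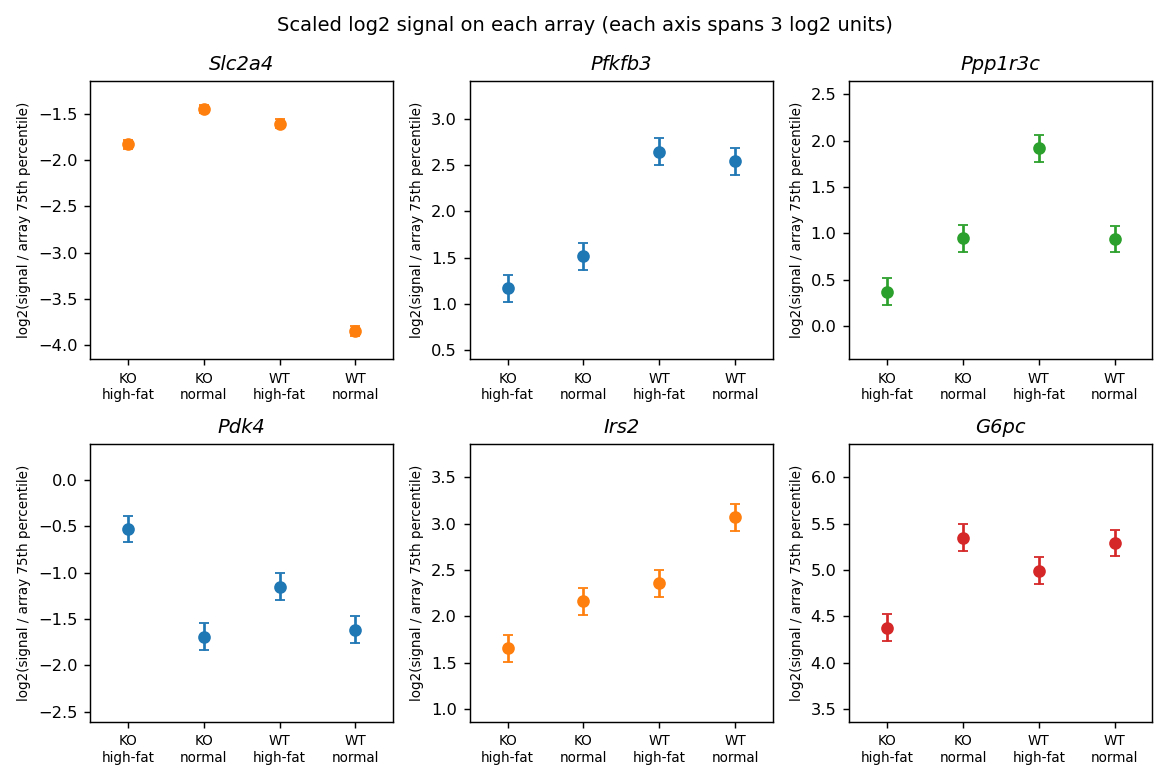
Scaled log2 signal (log2 of signal over the array's 75th percentile) of 6 genes on the 4 arrays; each point is 1 array, bars are the scanner's error for that array, and each vertical axis spans 3 log2 units. Slc2a4 is low on the wild-type normal-diet array alone (-3.85), Pfkfb3 is lower on both knockout arrays, and Ppp1r3c is highest on the wild-type high-fat array (1.92).

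In gluconeogenesis, no member reached 2-fold in any pair. The diet difference in the knockout was negative for 7 of the 8 genes, with a median of -0.26, against a median of 0.07 in wild type with 3 of 8 negative. Between 5 and 7 of the 8 were negative in the knockout over the 8 settings tried, and the median lay between -0.37 and -0.08. All genes measured on both arrays had a median of -0.07 in that comparison, with 39.9% above 0. The largest difference was that of G6pc, the catalytic subunit of glucose-6-phosphatase, which frees glucose for export. G6pc had a scaled log2 signal of 4.38 in the knockout on high-fat diet and 5.35 in the knockout on normal diet, against 4.99 in wild type on high-fat diet and 5.29 in wild type on normal diet. The knockout on high-fat diet was the lowest array, at 1.96-fold below the knockout on normal diet (-0.97 ± 0.20) and 1.53-fold below wild type on high-fat diet (-0.62 ± 0.20). In wild type the diet difference was -0.30 ± 0.20.

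The glucose carriers around G6pc showed smaller differences of the same sign on the knockout high-fat array. Slc2a2, the main glucose carrier of the hepatocyte surface, was 4.39 in the knockout on high-fat diet and 4.97 in the knockout on normal diet, against 4.73 in wild type on high-fat diet and 4.69 in wild type on normal diet. Its diet difference was -0.57 ± 0.20 in the knockout and 0.04 ± 0.20 in wild type. Slc37a4, which brings glucose phosphate to G6pc inside the endoplasmic reticulum, differed with diet by -0.29 ± 0.20 in the knockout and 0.13 ± 0.20 in wild type.

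Pck1 encodes phosphoenolpyruvate carboxykinase, a committed step of the route from pyruvate. Its scaled log2 signal was 6.98 in the knockout on high-fat diet and 7.22 in the knockout on normal diet, against 7.52 in wild type on high-fat diet and 7.42 in wild type on normal diet. Both knockout arrays were below both wild-type arrays, by 0.55 ± 0.20 on high-fat diet and by 0.20 ± 0.20 on normal diet, the second no larger than the scanner error. Fbp1, the bisphosphatase that opposes phosphofructokinase, stayed within 8.01 to 8.17. Pcx, which carboxylates pyruvate, was the exception in the branch in the knockout, higher on the high-fat diet by 0.23 ± 0.20. In wild type it was higher by 0.39 ± 0.20, and 5 of the 8 genes of the branch were higher there. The coactivators Ppargc1a and Crtc2, which relay fasting signals to these genes, differed by at most 0.30 in any pair.

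In glycogen metabolism, Ppp1r3c was the gene with the largest difference. It encodes a scaffold, also called protein targeting to glycogen, that brings a protein phosphatase to glycogen and favours glycogen synthesis. Ppp1r3c had a scaled log2 signal of 0.37 in the knockout on high-fat diet and 0.95 in the knockout on normal diet, against 1.92 in wild type on high-fat diet and 0.94 in wild type on normal diet. The normal-diet arrays matched, the wild-type high-fat array stood above them and the knockout high-fat array below them. On high-fat diet it fell 2.93-fold in the knockout (-1.55 ± 0.20), and on normal diet the genotypes differed by 0.00 ± 0.20. The diet difference was -0.58 ± 0.20 in the knockout and 0.98 ± 0.20 in wild type, where it came to 1.97-fold, just short of 2-fold.

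Ppp1r3b, the liver-enriched scaffold of the same family, was 6.29 in the knockout on high-fat diet and 6.85 in the knockout on normal diet, against 6.69 in wild type on high-fat diet and 6.85 in wild type on normal diet. The knockout high-fat array was again the lowest, by 0.56 ± 0.20 against the normal diet and by 0.40 ± 0.20 against wild type. Gys2, the liver glycogen synthase, differed with diet by -0.34 ± 0.20 in the knockout and -0.07 ± 0.20 in wild type. Pygl, the phosphorylase that breaks glycogen down, differed by -0.29 ± 0.20 in the knockout and -0.18 ± 0.20 in wild type. Ugp2, which makes the UDP-glucose used for glycogen, was 5.09 in the knockout on high-fat diet and 5.17 in the knockout on normal diet, against 5.19 in wild type on high-fat diet and 4.82 in wild type on normal diet. Here the wild-type normal-diet array was the low one, as it was for the branching enzyme gene Gbe1, which read 5.02, 4.81, 4.79 and 4.46 in the same order. Over the branch, 5 of 6 genes had a negative diet difference in the knockout, with a median of -0.32, and 3 of 6 in wild type, with a median of 0.13. Over the settings tried 4 to 5 were negative in the knockout, with the median between -0.42 and -0.09, and in wild type the median lay between 0.13 and 0.24. The Ppp1r3c promoter window, shown because the diet differences of the gene had opposite signs in the 2 genotypes, holds the CCAAT motif and the E-box.
Ppp1r3c, chr19:36736605-36736854, minus strand: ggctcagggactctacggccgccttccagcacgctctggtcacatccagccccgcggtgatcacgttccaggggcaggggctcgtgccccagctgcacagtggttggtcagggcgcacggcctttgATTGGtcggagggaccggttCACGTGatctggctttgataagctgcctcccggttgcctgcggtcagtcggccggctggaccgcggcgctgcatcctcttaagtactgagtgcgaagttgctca
Of the 37 genes, 32 have promoter windows in the RefSeq table, 46 windows in all. The E-box is found before 8 genes (Irs1, Irs2, Khk, Ldha, Pcx, Pdk2, Pfkfb3 and Ppp1r3c). The cAMP response motif is found before 5 (Ldha, Pck1, Pfkfb3, Ppargc1a and Slc37a4), CCAAT before 18 and the forkhead motif before 0. Counted by window, the E-box was in 8 of the 46, against 6.02% of all windows, and the cAMP response motif in 6, against 6.47%. CCAAT was in 20 of the 46, against 33.8%, and the forkhead motif in 0, against 3.17%. These are counts of letters in short windows and were not tested against the array values.

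**Figure D3:**
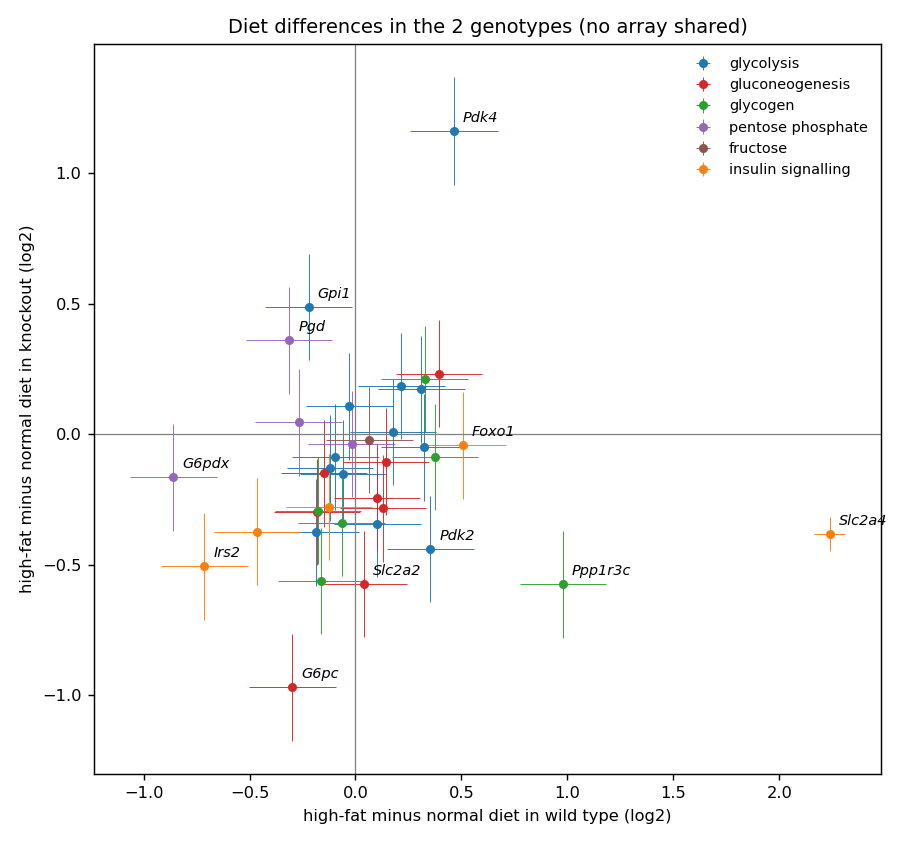
Diet differences (high-fat minus normal diet, log2) of the 37 genes, in the knockout (vertical) against wild type (horizontal); each point is 1 gene coloured by branch and the bars are scanner errors. Pdk4 lies highest (1.16 in the knockout), G6pc lowest (-0.97), and Slc2a4 and Ppp1r3c lie in the lower right field, where the diet difference is negative in the knockout and positive in wild type.

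The pentose phosphate genes differed most between genotypes on the high-fat diet, where all 4 were higher in the knockout, with a median of 0.61. That median lay between 0.56 and 0.70 over the settings tried, and none of the 4 genes reached 2-fold. On normal diet 3 of 4 were higher in the knockout, with a median of 0.18. G6pdx encodes glucose-6-phosphate dehydrogenase, the first and NADPH-yielding step. G6pdx had a scaled log2 signal of -0.27 in the knockout on high-fat diet and -0.10 in the knockout on normal diet, against -0.75 in wild type on high-fat diet and 0.11 in wild type on normal diet. The wild-type high-fat array was the low one, 1.82-fold below wild type on normal diet (-0.86 ± 0.20), while the diet difference in the knockout was -0.17 ± 0.20.

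Pgd, the next NADPH-yielding dehydrogenase, was 3.18 in the knockout on high-fat diet and 2.82 in the knockout on normal diet, against 2.33 in wild type on high-fat diet and 2.64 in wild type on normal diet. Both knockout arrays were above both wild-type arrays, and the gap was 1.81-fold on high-fat diet (0.85 ± 0.20) and 0.18 ± 0.20 on normal diet. Tkt encodes transketolase, which returns pentoses to glycolysis. Its signal was 4.86 in the knockout on high-fat diet and 4.82 in the knockout on normal diet, against 4.12 in wild type on high-fat diet and 4.39 in wild type on normal diet. Tkt was 1.67-fold higher in the knockout on high-fat diet (0.74 ± 0.20) and 1.35-fold higher on normal diet (0.43 ± 0.20). Taldo1, the transaldolase of the same arm, differed by at most 0.17 in any pair. Khk, the fructokinase and the one fructose gene of the set, differed by at most 0.20.

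**Figure D4:**
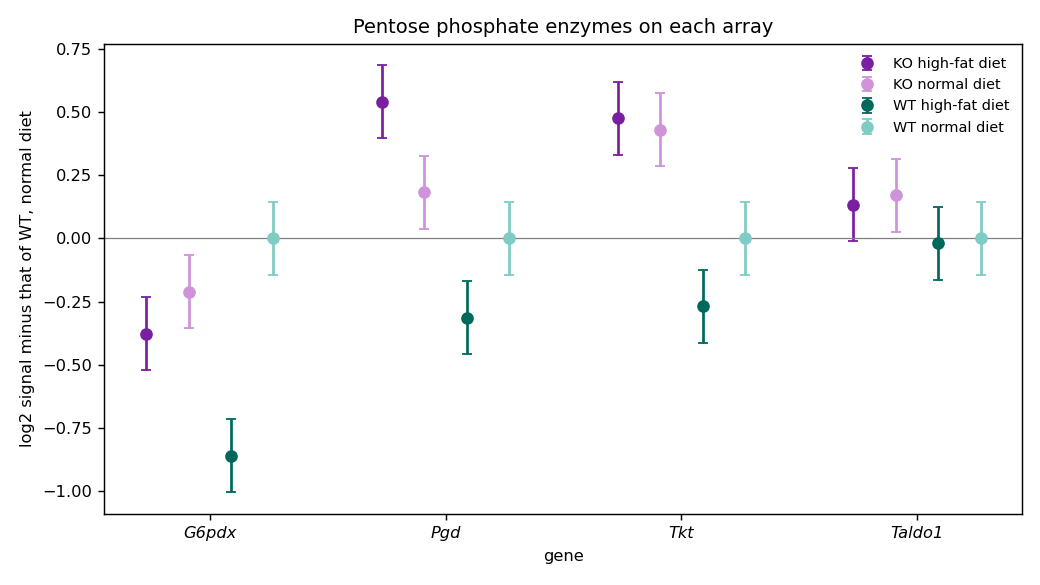
Log2 signal of the 4 pentose phosphate genes on each array minus the value of wild type on normal diet (vertical axis), with the 4 arrays side by side for each gene (horizontal axis); bars are the scanner's error for each array. For G6pdx, Pgd and Tkt the wild-type high-fat array is the lowest of the 4, at -0.86, -0.31 and -0.27.

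In insulin signalling, Slc2a4 gave the largest difference of all 37 genes. It encodes the insulin-responsive glucose carrier known mainly from muscle and fat. Slc2a4 had a scaled log2 signal of -1.83 in the knockout on high-fat diet and -1.45 in the knockout on normal diet, against -1.61 in wild type on high-fat diet and -3.85 in wild type on normal diet. One array, wild type on normal diet, stood far below the other three, which lay within 0.38 of each other. Slc2a4 accordingly rose 4.72-fold with the high-fat diet in wild type (2.24 ± 0.07) and 5.27-fold in the knockout on normal diet (2.40 ± 0.07), and both values rest on that single array. In the knockout the diet difference was -0.38 ± 0.07. With normexp background correction the 2 rises were smaller, 1.40 for diet in wild type and 1.53 for genotype on normal diet, and both stayed past 2-fold.

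This probe was printed in 10 spots, so its position on each array could be checked within the array. The spots ran from -2.09 to -1.46 (median -1.87) in the knockout on high-fat diet and from -1.61 to -1.33 (median -1.45) in the knockout on normal diet, against -1.77 to -1.48 (median -1.61) in wild type on high-fat diet and -3.92 to -3.71 (median -3.86) in wild type on normal diet. All 10 spots were well above background on every array and 0 carried an outlier flag. The low reading is therefore shared by all spots of the array, which share 1 RNA sample. The smaller error of Slc2a4 comes from averaging over these 10 spots, and it does not cover the spread between animals. Of 13551 genes well above background on all 4 arrays, those 2-fold or more below each other array numbered 32 in the knockout on high-fat diet and 21 in the knockout on normal diet, against 8 in wild type on high-fat diet and 49 (0.362%) in wild type on normal diet. The last array thus had the most such genes, and Slc2a4 was the one member among them.

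Markers of fat and skeletal muscle were looked at beside this carrier. The adipocyte genes Adipoq, Lep and Plin1 were not well above background on any array, and the other 3 of the 6 adipocyte genes, Cfd, Retn and Car3, were measured on all. Cfd rose with the high-fat diet by 3.59 ± 0.21 in the knockout and by 2.81 ± 0.20 in wild type. The other two were lower with it in both genotypes, Retn by 0.88 ± 0.24 in the knockout and 0.55 ± 0.26 in wild type, and Car3 by 0.79 ± 0.20 in the knockout and 0.24 ± 0.20 in wild type. The summed signal of the 6, in multiples of the 75th percentile, was 221 in the knockout on high-fat diet and 373 in the knockout on normal diet, against 291 in wild type on high-fat diet and 341 in wild type on normal diet. This sum was lower with the high-fat diet in both genotypes, like Retn and Car3 and unlike Cfd. The share of each gene in it is not given here, so it is no measure of fat tissue. Of 6 skeletal muscle genes, Acta1, Ckm, Myh4, Tnnt3 and Myl1 were not well above background on any array and Mylpf was so on 1. That was the array of wild type on normal diet, where Slc2a4 was low. Their summed signal was 0.0541, 0.0900, 0.0562 and 0.0837 in the same order of groups, and on every array it includes readings not well above background. The part of other tissue in the Slc2a4 values was not tested.

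Irs2, the adaptor through which hepatic insulin signalling responds to fasting and feeding, differed by both factors. Its scaled log2 signal was 1.66 in the knockout on high-fat diet and 2.16 in the knockout on normal diet, against 2.36 in wild type on high-fat diet and 3.07 in wild type on normal diet. Both knockout arrays lay below both wild-type arrays, and the high-fat array was the lower of each genotype. None of the 4 differences reached 2-fold. They were -0.70 ± 0.20 between genotypes on high-fat diet, -0.91 ± 0.20 on normal diet, -0.51 ± 0.20 for diet in the knockout and -0.71 ± 0.20 for diet in wild type. Irs1, the other adaptor, was 0.63, 1.00, 0.79 and 1.25 in that order of groups, with the high-fat array lower in each genotype by 0.37 ± 0.20 in the knockout and 0.47 ± 0.20 in wild type.

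Foxo1 had a scaled log2 signal of 2.74 in the knockout on high-fat diet and 2.79 in the knockout on normal diet, against 3.17 in wild type on high-fat diet and 2.66 in wild type on normal diet. The wild-type high-fat array was above the other three, by 0.51 ± 0.20 against wild type on normal diet and by 0.42 ± 0.20 against the knockout on high-fat diet. Insr, the receptor itself, differed by at most 0.28 in any pair. All 5 genes of the branch were lower on the high-fat diet in the knockout, with a median of -0.37, and 3 of 5 were lower in wild type, with a median of -0.12. Foxo1 was so by only 0.04 ± 0.20 in the knockout, and it read up to 0.09 higher in other settings. Over the settings tried 4 to 5 were negative in the knockout, with the median between -0.48 and -0.29. The median of all genes there was -0.07, with 39.9% above 0.

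The diet effect in the knockout minus that in wild type, which uses all 4 arrays, was -2.62 ± 0.10 for Slc2a4 and -1.55 ± 0.29 for Ppp1r3c. These were the 2 members past 2-fold, both on the lower side, where 1.28% of 13551 genes were. No member was past 2-fold on the higher side, where 3.73% of genes were. Either way, 5% of genes were past 2-fold. At 1.5-fold 9 members passed, against 14.6% of genes. Gpi1 (0.71), Pdk4 (0.70), G6pdx (0.69) and Pgd (0.67) were on the positive side, with 9.5% of genes, and Pdk2 (-0.79), G6pc (-0.67) and Slc2a2 (-0.61) joined Slc2a4 and Ppp1r3c on the negative side, with 5.07%. All 8 gluconeogenesis genes and all 6 glycogen genes had a negative value, with medians of -0.30 and -0.34, against a median of -0.04 over all genes, of which 44.4% were positive. The values of Fbp1, Pcx, Ppargc1a, Crtc2, Gys2, Pygl and Gbe1 were within their scanner error of 0.29, and that of Ppargc1a was -0.00. In the settings tried, 7 to 8 of the gluconeogenesis genes and 4 to 6 of the glycogen genes were negative. With 1 array a group none of these values has a replicate.

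Genotype and diet were also fitted together as additive terms in limma, over the 14346 genes that stood well above background on 2 or more arrays, and p-values were adjusted over all of these by the Benjamini-Hochberg method. The fit called 0 of the 37 genes for diet and 0 for genotype at an adjusted p of 0.05, and 0% of all genes for either factor. The lowest adjusted p among the members was 0.458 for diet and 0.644 for genotype. At an unadjusted p of 0.05, where 9.93% of all genes passed for diet, 3 members did: Irs2 (-0.61, SE 0.13), Irs1 (-0.42, SE 0.12) and Pdk4 (0.81, SE 0.23). For genotype, where 7.26% of all genes passed unadjusted, 4 members did. These were Pfkfb3 (-1.25, SE 0.17), Irs2 (-0.80, SE 0.13), Tkt (0.59, SE 0.14) and Pklr (0.45, SE 0.11). Its 1 residual degree of freedom measures how far the diet effects of the 2 genotypes differ, so a gene such as Slc2a4 has a large error in this fit.

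Of the further genes listed for the same pathways, 143 had a named probe. With the high-fat diet in the knockout 3 rose and 3 fell, and in wild type 1 rose and 4 fell. In the knockout against wild type 4 rose and 6 fell on high-fat diet, and 0 rose and 4 fell on normal diet. The medians of the 143 were -0.13 for diet in the knockout and -0.00 for diet in wild type, and they were -0.08 and 0.04 for genotype on the high-fat and normal diets.

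In glycolysis 3 of the 31 further genes rose with diet in the knockout, all of them isoforms that are minor in liver. Hk2, a hexokinase of muscle and of growing cells, had a scaled log2 signal of -2.47 in the knockout on high-fat diet and -3.94 in the knockout on normal diet, against -3.77 in wild type on high-fat diet and -4.31 in wild type on normal diet. It rose with diet in the knockout by 1.47 ± 0.24, and on the high-fat diet it was higher in the knockout by 1.29 ± 0.24. Pfkfb4 rose by 1.34 ± 0.23 and Hk3, the hexokinase of blood cells, by 1.14 ± 0.22 in the same comparison. The knockout high-fat array was the highest of the 4 for each of these genes. The glucose carrier Slc2a3 was well above background on the knockout arrays alone, and on high-fat diet it rose at least 2.15-fold in the knockout. Aldoc, an aldolase known mainly from brain, fell with the high-fat diet in both genotypes, by 1.06 ± 0.20 in the knockout and by 1.25 ± 0.20 in wild type.

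The same array was also the highest in markers of macrophages, which are known to use Hk3. Of 11 macrophage genes 8 rose and 0 fell with the high-fat diet in the knockout, and 0 changed with diet in wild type. Their summed signal, in multiples of the 75th percentile, was 88.9 in the knockout on high-fat diet and 33.5 in the knockout on normal diet, against 48.8 in wild type on high-fat diet and 40.5 in wild type on normal diet. The summed signal of 10 hepatocyte genes was lowest there, at 2956 in the knockout on high-fat diet and 3499 in the knockout on normal diet, against 3528 in wild type on high-fat diet and 3718 in wild type on normal diet. Of 8 stellate cell and matrix genes 4 rose with diet in the knockout and 2 in wild type. The median of the 10 hepatocyte genes was -0.24 for diet in the knockout, against -0.26 for the gluconeogenesis members. For genotype on high-fat diet these medians were -0.27 and -0.24. They had opposite signs in the other pairs. For diet in wild type the hepatocyte median was -0.10 and the gluconeogenesis median 0.07. For genotype on normal diet they were -0.13 and 0.15. Of the 10 hepatocyte genes, Cps1 fell in both pairs that include the knockout high-fat array. It is also on a list of 7 periportal genes. With diet in the knockout 3 of these 7 fell, with a median of -0.78, and 2 of 7 pericentral genes fell, with a median of -0.51. The part of cell makeup in the lower glucose production and glycogen values was not tested. In whole liver, fewer cells of a type and less RNA per cell cannot be told apart.

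Among further genes of gluconeogenesis and its control, Tat, the tyrosine aminotransferase induced by glucocorticoids and fasting, was 4.84 in the knockout on high-fat diet and 5.82 in the knockout on normal diet, against 5.91 in wild type on high-fat diet and 5.95 in wild type on normal diet. Like G6pc it was lowest on the knockout high-fat array, where it fell by 1.07 ± 0.20 relative to wild type. Ppargc1b, a coactivator related to Ppargc1a, fell with diet in the knockout by 1.03 ± 0.21. Of the 29 of these 31 genes that were measured on both arrays, 23 were lower with diet in the knockout, with a median of -0.24. Foxo4 rose with diet in wild type by 1.14 ± 0.25 and was lower in the knockout on high-fat diet by 1.16 ± 0.24. Its readings were dim, between -4.97 and -3.07 on the arrays.

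Of 21 further glycogen genes, Ppp1r3g, a phosphatase scaffold known to follow feeding, had the largest difference. It was -0.04 in the knockout on high-fat diet and 1.51 in the knockout on normal diet, against 0.64 in wild type on high-fat diet and 1.75 in wild type on normal diet. It fell with the high-fat diet in both genotypes, by 1.55 ± 0.20 in the knockout and by 1.11 ± 0.20 in wild type. Pygb, the brain-type phosphorylase, was higher in the knockout on high-fat diet by 1.18 ± 0.27, with dim readings between -4.30 and -3.13. Nhlrc1, a ubiquitin ligase of glycogen quality control, differed by at most 0.71.

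None of the 9 further pentose phosphate genes reached 2-fold in any pair, and the 7 that were measured on both high-fat arrays all read lower in the knockout, with a median of -0.08. That median was within the typical scanner error of 0.20 and near the median of all genes, -0.04, while the median of the 4 members was 0.61. Between genotypes on high-fat diet Shpk differed most, by -0.39 ± 0.20, and Rpia and Prps1 by -0.08 ± 0.21 and -0.36 ± 0.20. Of 16 further genes of fructose and polyol use, Sord changed. It encodes sorbitol dehydrogenase, which turns sorbitol into fructose, and it was 5.25 in the knockout on high-fat diet and 5.45 in the knockout on normal diet, against 6.65 in wild type on high-fat diet and 5.97 in wild type on normal diet. Sord fell by 1.39 ± 0.20 in the knockout on high-fat diet, while Srebf1 and Slc2a5 differed by at most 0.77 and 0.74 in any pair.

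Of 35 further insulin signalling genes, 4 fell in the knockout on normal diet, namely Igfbp1, Socs1, Socs3 and Grb10, and 3 of them, Igfbp1, Socs1 and Socs3, fell in the knockout on high-fat diet. Igfbp1, a secreted binding protein whose gene insulin represses, was 3.61 in the knockout on high-fat diet and 3.35 in the knockout on normal diet, against 4.77 in wild type on high-fat diet and 5.78 in wild type on normal diet. Socs1 and Socs3 encode feedback inhibitors of cytokine signalling that can also act on Irs proteins. Socs1 was -3.72 in the knockout on high-fat diet and -3.66 in the knockout on normal diet, against -1.52 in wild type on high-fat diet and -2.03 in wild type on normal diet. Socs3 was lower in the knockout by 1.22 ± 0.20 on high-fat diet and by 1.44 ± 0.20 on normal diet. Both knockout arrays lay below both wild-type arrays for each of these 3 genes, as they did for Irs2. Grb10, an adaptor that restrains the insulin receptor, was lower in the knockout by 0.08 ± 0.32 on high-fat diet and by 1.64 ± 0.36 on normal diet. Its readings were dim, between -5.41 and -3.78.

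Genes that respond within minutes to handling or stress, and clock genes, also differed between these livers. Of 10 immediate early genes, 5 fell in the knockout on normal diet, and their summed signal was 8.04 in the knockout on high-fat diet and 5.75 in the knockout on normal diet, against 11.3 in wild type on high-fat diet and 11.9 in wild type on normal diet. Of the 17 clock genes, Ciart was -1.17 in the knockout on high-fat diet and -0.30 in the knockout on normal diet, against -0.06 in wild type on high-fat diet and -1.67 in wild type on normal diet. It rose in both comparisons in which Slc2a4 rose, by 1.37 ± 0.21 in the knockout on normal diet and by 1.61 ± 0.21 with diet in wild type. Both comparisons use the wild-type normal-diet array. No other clock gene rose in either, and 1 fell in each, Nfil3 (-1.06) in the knockout on normal diet and Nr1d1 with diet in wild type. The medians of the clock genes were 0.22 and 0.34. Unlike Slc2a4, Ciart fell in the knockout on high-fat diet, by 1.11 ± 0.20. Nr1d1 fell with diet by 1.38 ± 0.20 in the knockout and by 1.14 ± 0.20 in wild type. The part of sampling hour or handling in the values of Slc2a4, Irs2, Igfbp1, Pfkfb3 or Ppp1r3g was not tested.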

How the data were processed

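Liver RNA of 4 groups was measured on 1-colour Agilent arrays labelled with Cy3, 1 array a group, all on 1 slide in 1 scan. Per the file headers, the deposited intensity values come from Feature Extraction 11.5.1.1 and are background-subtracted processed signals on a linear scale. Per the design text of the series, values were extracted with GeneSpring GX 7.3. The authors' deposited value table holds intensity with no centring: it lay within 1% of the scanner signal for 99.7% of probes on each array. Its column medians were 89.158 and 72.377 for the knockout on high-fat and normal diet, and 75.866 and 79.87 for wild type on high-fat and normal diet.

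Control spots and flagged spots (98 to 186 an array) were left out, except where every spot of a probe was flagged, and 0 spots were saturated. Spots of a probe were averaged as log2, then scaled by subtracting the array's own 75th percentile, taken over 39429 probes. The percentile was 1152 and 1002 for the knockout on high-fat and normal diet and 1019 and 1006 for wild type. Between 23760 and 25184 probes were well above background. Accessions matched to RefSeq (GRCm38.p6) named 27508 probes, and 11921 stayed unnamed. The probe with the highest mean signal stands for a gene with several probes. For the 11 members with more than 1 probe, the further probes had the same sign in 48 of 56 comparisons.

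Differences between 2 arrays were called at 2-fold where both readings of the probe were well above background. Where 1 reading was, the other was replaced by the lowest such reading of its array, or by the probe's own value if higher, and the fold is a lower bound. The additive model used limma 3.58.1 in R 4.3.3. Other steps used Python 3.11.15, numpy 2.4.6, pandas 2.3.3 and matplotlib 3.10.9. Both were tested on simulated data. Members, lists and the rule for named genes were chosen with earlier results of these data known. Full values are given for members changed 2-fold, for the 3 members of each branch and the 3 genes of each further list with the largest difference; a few others were named after their values were seen. Cd68 and Hbb-b1 were not analysed here.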

Additional observations from a re-analysis of the deposited data

Results flagged for a closer look

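In 5 of the 37 genes the diet difference had opposite signs in the 2 genotypes, each beyond its scanner error. The share of all genes that meet this rule is not given here, so the count has no background to be set against. The difference between the diet effects was not tested, since each group has 1 array. For Slc2a4 the diet effect in the knockout minus that in wild type was -2.62, for Ppp1r3c -1.55 and for Pdk2 -0.79, with the gene lower on the high-fat diet in the knockout and higher in wild type. For Gpi1 it was 0.71 and for Pgd 0.67, with the gene higher on the high-fat diet in the knockout and lower in wild type. The wild-type difference of Gpi1, -0.22, passed its error of 0.20 narrowly. It was -0.13 with median scaling, -0.08 with quantile normalization and -0.13 with cyclic loess, all within that error, while the other 4 genes were past 0.20 in both genotypes under these settings.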

How the results depend on the processing

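All results rest on 1 array a group, so leaving out a replicate was not possible and the errors given cover spot measurement alone. No paired analysis was possible because each group has 1 array. Slide and scan could not be fitted as a block, since all arrays share them. The background alternative used the median spot signal, as the files used here hold no mean spot signal. Scaling by the median called 2 members for diet in wild type (adding Ppp1r3c), 2 for diet in the knockout (adding G6pc, lower), 1 for genotype on normal diet, and 2 (Pfkfb3 and Slc2a4) for genotype in the additive fit. The normexp background correction called 0 for diet in the knockout (Pdk4 at 0.99) and 1 for genotype on normal diet. Averaging all probes of a gene also called 1 there. The member lost on normal diet was Pfkfb3, at -0.88, -0.98 and -0.71 under median scaling, normexp and averaging. A 1.5-fold threshold called 4 members for diet in wild type, 2 for diet in the knockout, 8 for genotype on high-fat diet and 9 for the difference of diet effects. Of 64 alternatives for single genes, 60 stayed on their side of 2-fold, 4 did not (those above), and 0 reversed. The Slc2a4 values lay between 1.40 and 2.33 for diet in wild type and between 1.53 and 2.54 for genotype on normal diet, the lowest of each with normexp. The medians over the 37 genes moved by less than the typical scanner error in all 35 alternatives, but they changed sign for diet in the knockout (-0.25 to 0.02), genotype on high-fat diet (-0.14 to 0.08) and diet in wild type (-0.02 to 0.12). Median scaling moved the median of all genes for diet in the knockout to -0.17 from -0.07, for genotype on normal diet to 0.13 from -0.01 and for the difference of diet effects to -0.24 from -0.04. The genes that rose and fell then numbered 510 and 320 (main 629 and 245), 264 and 285 (main 206 and 368), and 308 and 297 (main 505 and 173). The causes were not tested.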
